A study of Homo sapiens with 9 samples.

Results

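The MYC, MAX and MXD network was followed by the transcripts of 10 genes, MYC, MYCL, MAX, MXD1, MXD3, MXD4, MXI1, MNT, MLX and MLXIP, chosen by name. All 10 were found among the 58735 genes of the deposited tables and all 10 had enough counts to be tested. RNA was sequenced from MDA-MB-231, an established human triple-negative breast cancer line, in 9 libraries. The 3 vehicle libraries came from cells given DMSO, the 3 erastin-R libraries from cells that had survived rising amounts of erastin, which blocks cystine uptake, and the 3 RSL3-R libraries from cells that had survived rising amounts of RSL3, which inhibits GPX4. Both agents kill cells by ferroptosis, a death driven by iron-dependent lipid peroxidation. The submitters describe the survivors as resistant, the word used here as a name for both groups. The labels give only the treatment. Raised IC50 values are reported in the paper for resistant lines whose making it describes after this sequencing. Neither the labels nor the methods say whether drug was still present when RNA was taken, so a response to the drug and a lasting difference of the survivors cannot be told apart. The labels do not say either whether the libraries of a group came from separate cultures, so the p values measure only the spread between these libraries, which may be technical.

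MYC is a transcription factor that binds DNA only as a dimer with MAX, at the E-box CACGTG, and raises genes of ribosome production, nucleotide synthesis and growth. MXD1, MXD3, MXD4, MXI1 and MNT compete for the same MAX and, through SIN3 and histone deacetylases, lower genes at the same boxes. MLX pairs with MLXIP, also called MondoA, as a sensor of glucose-derived metabolites whose best known target is TXNIP. MYC is amplified or highly expressed in many breast cancers of the triple-negative kind.

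The libraries held 15405102 to 17273464 counts. Pearson correlations of log2 normalized counts were 0.9858 to 0.9924 within groups and 0.9589 to 0.9723 between groups. As erastin-R replicate 1 stood apart from the other erastin-R libraries, some counts of passing genes and some single values are given without it too. Of markers of the line, VIM had at least 20507 counts and AXL at least 12462 counts in every library, whereas ESR1 had at most 12 and PGR at most 2. CDH1, an epithelial cadherin known to be silenced in this line, had 6 to 27 counts in vehicle and erastin-R libraries and 53 to 59 in RSL3-R libraries.

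The E-box was looked for in the promoters of the network's own genes, since members of the network are themselves candidates for binding by it. RefSeq windows of 300 bases on GRCh38.p14, from 250 before to 50 after the start, were found for 9 of the 10 genes, all but MYC. The letters CACGTG, the same on both strands, stood in a window of 3 of these 9 genes, MXD4, MNT and MLX, against 2396 of all 27305 genes with a window, or 8.77%. The 250 bases before the start of each follow, 5′ to 3′ on the gene's own strand, with the E-box in capitals. The first base of the box lay 238 bases before the RefSeq start of MXD4, 193 before that of MNT and 50 before that of MLX. The stretches are chr4:2262110-2262359 on the minus strand, chr17:2401061-2401310 on the minus strand and chr17:42566850-42567099 on the plus strand. A match is a description of letters and not a measured binding site.
MXD4: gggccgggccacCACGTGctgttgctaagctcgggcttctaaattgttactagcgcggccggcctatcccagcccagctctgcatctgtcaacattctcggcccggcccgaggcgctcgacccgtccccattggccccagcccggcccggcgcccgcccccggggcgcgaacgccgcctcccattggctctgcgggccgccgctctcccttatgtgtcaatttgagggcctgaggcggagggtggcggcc
MNT: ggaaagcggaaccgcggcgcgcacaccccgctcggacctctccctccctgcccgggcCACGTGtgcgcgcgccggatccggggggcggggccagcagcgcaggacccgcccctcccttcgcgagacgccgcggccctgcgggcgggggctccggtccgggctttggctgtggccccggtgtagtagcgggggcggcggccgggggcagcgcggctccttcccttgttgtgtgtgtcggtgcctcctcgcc
MLX: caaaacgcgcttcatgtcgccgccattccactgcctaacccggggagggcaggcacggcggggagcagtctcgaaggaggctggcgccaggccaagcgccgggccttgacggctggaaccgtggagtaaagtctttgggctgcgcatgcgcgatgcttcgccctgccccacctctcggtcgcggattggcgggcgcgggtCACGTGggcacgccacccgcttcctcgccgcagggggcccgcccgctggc

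Of the 10 genes, 8 differed from vehicle in erastin-R cells by edgeR's quasi-likelihood test at an adjusted p below 0.05. MYC, MXD1, MNT, MXI1, MXD4, MLX and MLXIP rose, and MAX fell. Without erastin-R replicate 1 the counts were again 7 higher and 1 lower. Over all 16188 genes tested, 27.1% were higher and 26.8% were lower. The 7 higher genes of 10 are above the share of all genes and the 1 lower gene is below it. The 10 genes were chosen with earlier results of these data known, so this is a description and not a test. In RSL3-R cells 4 of the 10 differed from vehicle. MYC, MXD1 and MXI1 rose and MXD3 fell, beside 23.8% of all genes higher and 24.9% lower. Between the resistant groups 6 differed, all lower in RSL3-R than in erastin-R, namely MYC, MXD3, MXD4, MNT, MLX and MLXIP, beside 22.3% of all genes higher and 26.9% lower. With a change of at least 2-fold also required, MYC and MXD1 remained in erastin-R against vehicle, where 6.7% of all genes were higher by that rule and 6.66% lower. MXD1 and MXD3 remained in RSL3-R against vehicle, where 6.02% were higher and 4.08% lower. MXD3 alone of the 10 remained between the resistant groups, where 6.86% were higher and 3.48% lower. The median log2 fold change of the 10 genes was 0.46, 0.11 and -0.28 in the 3 comparisons in this order, and that of all genes tested was -0.0042, 0.0052 and -0.024. In bulk RNA, fewer cells making a transcript and less of it per cell cannot be told apart.

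**Figure D1:**
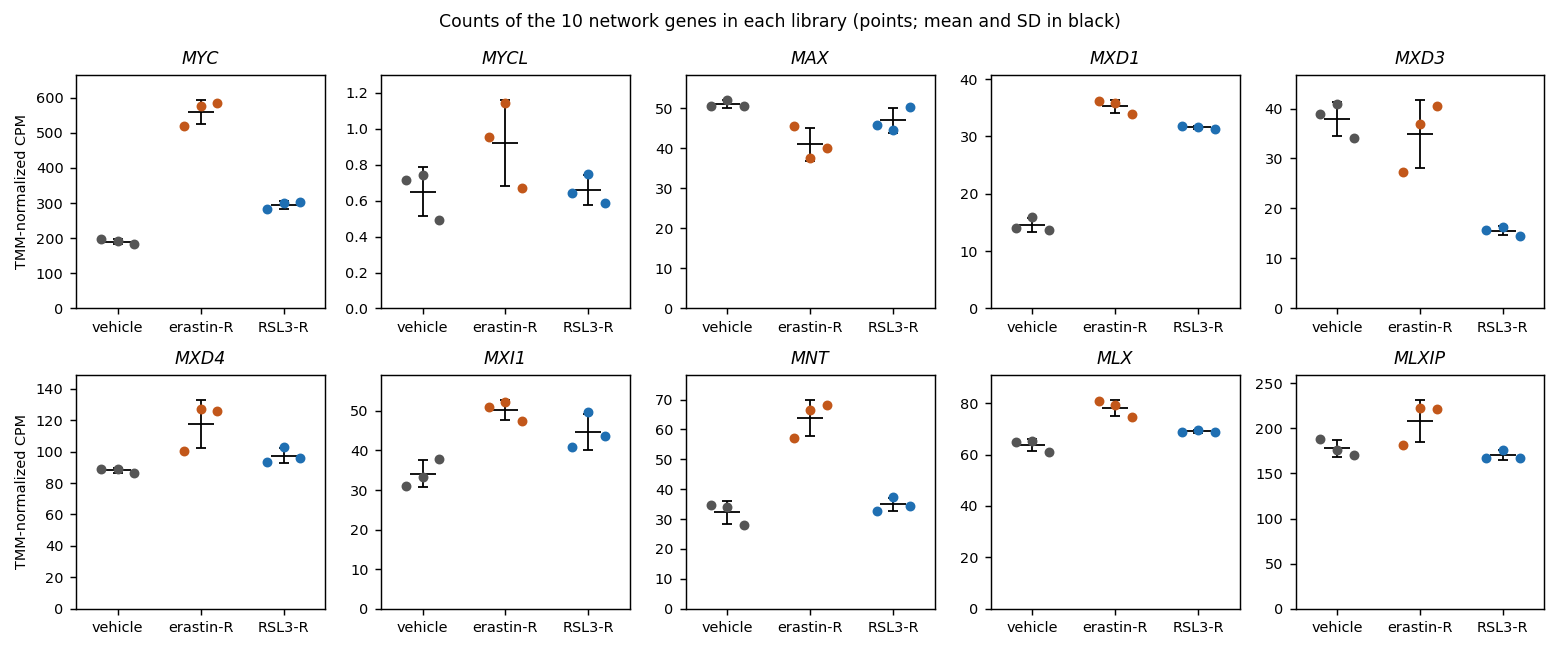
CPM, the count divided by the TMM-normalized library size on a scale shared by all libraries, of the 10 network genes in each of the 9 libraries, with each group's mean and SD (n = 3) in black and every axis starting at 0. MYC stood at 184 to 197 in vehicle, 520.3 to 584 in erastin-R and 283 to 304 in RSL3-R libraries, and MXD3 at 14.6 to 16.3 in RSL3-R libraries.

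MYC lies at chromosome 8, 127735434 to 127741434 on the plus strand (GENCODE 29, GRCh38), with 3001 exonic bases. Its TMM-normalized CPM values were 197, 191 and 184 in the vehicle libraries, 520.3, 575 and 584 in the erastin-R libraries and 283, 300.4 and 304 in the RSL3-R libraries. The groups did not overlap, and erastin-R was highest and vehicle lowest. MYC rose 2.94-fold in erastin-R cells (log2 fold change 1.56 ± 0.06 SE, edgeR adjusted p = 5.46e-10) and 1.55-fold in RSL3-R cells (log2 fold change 0.64 ± 0.06 SE, edgeR adjusted p = 1.53e-06). It was 1.89-fold lower in RSL3-R than in erastin-R cells (log2 fold change -0.92 ± 0.06 SE, edgeR adjusted p = 6.65e-08). Of all genes tested, 4.81% had a larger absolute log2 fold change than MYC in erastin-R cells, and the share was 25.4% for RSL3-R cells.

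MYCL, a close relative of MYC first found in lung cancer, was counted 8 to 18 times per library. Its means were 0.65 CPM in vehicle, 0.92 in erastin-R and 0.66 in RSL3-R libraries, and these ranges overlapped. None of its 3 comparisons passed, the lowest adjusted p by edgeR being 0.264, and a change of MYCL was not detectable at this depth. MYCN had 0 counts in all 9 libraries, which allows up to 3 counts in each.

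Levels were compared between genes as the deposited FPKM, which divides the counts by exonic length. MYC stood first of the 10 in every group, at 62.8 ± 2.05 FPKM in vehicle, 184 ± 12.1 in erastin-R and 97.8 ± 3.89 in RSL3-R libraries (SD, n = 3). These levels placed MYC at rank 478, 102 and 238 of 19951 protein-coding genes. In vehicle libraries MLX followed at 14.8 FPKM, then MLXIP at 12.6, MXD4 at 12.3, MAX at 11.4, MXI1 at 7.32, MXD3 at 7.29, MNT at 3.66, MXD1 at 2.27 and MYCL at 0.127. The libraries' ranges overlapped between MLXIP and MXD4 and between MXI1 and MXD3, and between no other neighbours of this order in vehicle cells. The order differed between groups. MXD4 stood just below MLXIP in vehicle cells and just above it in erastin-R and RSL3-R cells, with ranges that overlapped in vehicle and erastin-R cells and not in RSL3-R cells. MAX stood above MXI1 in vehicle cells and below it in erastin-R cells, with no overlap in either. MXD1 was ninth of the 10 in vehicle and erastin-R cells, at 2.27 and 5.48 FPKM, and seventh in RSL3-R cells at 4.93 FPKM, while MXD3 went from seventh in vehicle to ninth in RSL3-R cells at 2.99 FPKM.

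MAX, the partner that MYC and the MXD proteins share, had 50.6, 52.2 and 50.6 CPM in the vehicle libraries, 45.6, 37.5 and 40.0 in the erastin-R libraries and 45.9, 44.6 and 50.4 in the RSL3-R libraries. Every erastin-R and RSL3-R library was below every vehicle library, and the resistant groups overlapped. MAX fell in erastin-R cells (log2 fold change -0.32 ± 0.08 SE, edgeR adjusted p = 0.00498). RSL3-R cells gave -0.12 ± 0.08 (SE), which did not pass (edgeR adjusted p = 0.238), nor did the value of 0.19 ± 0.08 between the resistant groups (edgeR adjusted p = 0.0651). Without erastin-R replicate 1, the highest of its group, that last value became 0.28 with an edgeR adjusted p of 0.00211.

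The ratio of MYC to MAX, in FPKM, was 5.74, 5.40 and 5.35 in the vehicle libraries, 16.9, 22.6 and 21.6 in the erastin-R libraries and 9.09, 9.95 and 8.90 in the RSL3-R libraries. MYC over the summed FPKM of MXD1, MXD3, MXD4, MXI1 and MNT was 1.98, 1.86 and 1.89 in vehicle, 4.05, 3.85 and 3.96 in erastin-R and 2.77, 2.65 and 2.92 in RSL3-R libraries. Both ratios had the order of MYC itself, with erastin-R highest, vehicle lowest and no overlap. MYC made up 46.2% to 47.2% of the FPKM of all 10 genes in vehicle, 67.0% to 68.0% in erastin-R and 56.5% to 57.7% in RSL3-R libraries. These ratios are of transcripts and were not tested, since they restate the values of MYC.

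**Figure D2:**
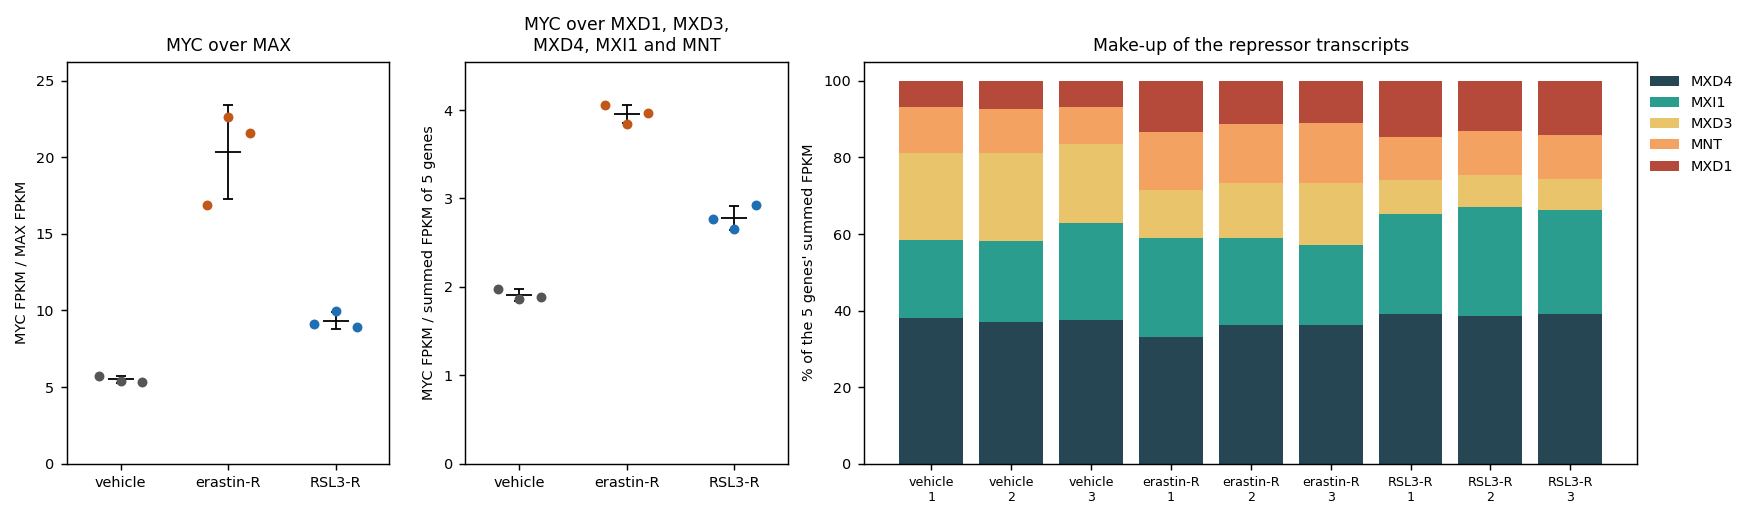
Left and middle, ratio of MYC FPKM to MAX FPKM and to the summed FPKM of the 5 repressor genes in each library, with mean and SD (n = 3). Right, percent of the summed FPKM of the 5 repressor genes that each gene held in each library, where MXD1 held 6.69% to 7.33% in vehicle and 10.9% to 14.8% in resistant libraries.

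Of the 5 repressors, MXD1 had the largest rise. MXD1, once known as MAD, is the family member best known for rising as cells stop dividing and differentiate. Its CPM were 14.1, 15.9 and 13.8 in the vehicle libraries, 36.1, 35.8 and 34.0 in the erastin-R libraries and 31.8, 31.6 and 31.2 in the RSL3-R libraries. All resistant libraries were above all vehicle libraries. The rise was 2.42-fold in erastin-R cells (log2 fold change 1.27 ± 0.08 SE, edgeR adjusted p = 4.33e-08) and 2.16-fold in RSL3-R cells (log2 fold change 1.11 ± 0.09 SE, edgeR adjusted p = 1.52e-07). Between the resistant groups MXD1 differed by -0.16 ± 0.08 (SE) on the log2 scale, which did not pass (edgeR adjusted p = 0.113).

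MXD3, a member described mainly in dividing cells in S phase, fell in RSL3-R cells. Its CPM were 38.9, 40.8 and 34.2 in the vehicle libraries, 27.3, 37.0 and 40.5 in the erastin-R libraries and 15.7, 16.3 and 14.6 in the RSL3-R libraries. Every RSL3-R library was below every other library, and vehicle and erastin-R overlapped. MXD3 fell 2.45-fold in RSL3-R cells against vehicle (log2 fold change -1.29 ± 0.13 SE, edgeR adjusted p = 2.43e-06) and was 2.25-fold lower than in erastin-R cells (log2 fold change -1.17 ± 0.13 SE, edgeR adjusted p = 8.25e-06). In erastin-R cells its value was -0.12 ± 0.12 (SE, edgeR adjusted p = 0.433), and 0.029 without erastin-R replicate 1.

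MXD3 shares exons with its neighbours, 18.0% of its exonic length with RAB24 on the same strand and 22.5% with PRELID1 on the opposite strand, and whether the counting used strand is not given in the sources used here. PRELID1 had 63.0 to 67.4 CPM in vehicle, 54.9, 104 and 104 in erastin-R and 42.0 to 47.5 in RSL3-R libraries, so erastin-R replicate 1 was the lowest of its group for PRELID1 as for MXD3. PRELID1 fell in RSL3-R cells by 0.55 on the log2 scale (edgeR adjusted p = 0.0195), and RAB24 differed by 0.02 (edgeR adjusted p = 0.933). The part of shared exons in the counts of MXD3 was not tested.

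MNT, the repressor present in nearly all cell types, rose in erastin-R cells and not detectably in RSL3-R cells. Its CPM were 34.8, 34.1 and 27.9 in the vehicle libraries, 57.0, 66.6 and 68.0 in the erastin-R libraries and 32.8, 37.4 and 34.5 in the RSL3-R libraries. Erastin-R stood above all other libraries, and vehicle and RSL3-R overlapped. The change was 1.98-fold in erastin-R cells (log2 fold change 0.98 ± 0.10 SE, edgeR adjusted p = 1.76e-06) and 1.08-fold in RSL3-R cells (log2 fold change 0.11 ± 0.10 SE, edgeR adjusted p = 0.38). RSL3-R cells were 1.83-fold below erastin-R cells (log2 fold change -0.87 ± 0.10 SE, edgeR adjusted p = 8.05e-06).

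MXI1 and MXD4 changed less. MXI1, first described as a MAX interactor, had 31.1, 33.4 and 37.8 CPM in the vehicle libraries, 51.0, 52.4 and 47.5 in the erastin-R libraries and 40.9, 49.7 and 43.5 in the RSL3-R libraries, so both resistant groups stood above vehicle. It rose by 0.56 ± 0.09 (SE) on the log2 scale in erastin-R cells (edgeR adjusted p = 0.000168) and by 0.39 ± 0.09 in RSL3-R cells (edgeR adjusted p = 0.00319). MXD4, the most abundant of the 5 per length, had 88.8, 89.1 and 86.1 CPM in vehicle, 100.1, 127 and 126 in erastin-R and 93.5, 103 and 95.6 in RSL3-R libraries. It rose by 0.42 ± 0.08 (SE) on the log2 scale in erastin-R cells (edgeR adjusted p = 0.000816). Its value in RSL3-R cells was 0.14 ± 0.08 and did not pass (edgeR adjusted p = 0.174).

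The make-up of the repressor transcripts changed with these values. MXD4 held 36.9% to 38.1% of the 5 genes' summed FPKM in vehicle, 33.2% to 36.2% in erastin-R and 38.6% to 39.1% in RSL3-R libraries. MXD3 held 20.5% to 23.1% in vehicle, 12.4% to 16.0% in erastin-R and 8.14% to 8.99% in RSL3-R libraries. MXD1 held 6.69% to 7.33% in vehicle, 10.9% to 13.3% in erastin-R and 13.2% to 14.8% in RSL3-R libraries. MXD1 and MXD3 thus changed places, MXD3 being the more abundant per length in vehicle cells and MXD1 in RSL3-R cells.

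MLX, the partner of MLXIP and of MLXIPL, had 64.7, 65.3 and 61.1 CPM in the vehicle libraries, 80.7, 79.1 and 74.8 in the erastin-R libraries and 68.6, 69.5 and 68.8 in the RSL3-R libraries. The groups did not overlap. MLX rose by 0.30 ± 0.06 (SE) on the log2 scale in erastin-R cells (edgeR adjusted p = 0.00116), and its 0.11 ± 0.06 in RSL3-R cells did not pass (edgeR adjusted p = 0.147). MLX shares 18.1% of its exonic length with PSMC3IP on the opposite strand, which fell in erastin-R cells by 0.71 on the log2 scale (edgeR adjusted p = 0.00157). MLXIP had 188, 175 and 170 CPM in vehicle, 182, 222 and 221 in erastin-R and 167, 176 and 168 in RSL3-R libraries. Its rise of 0.23 ± 0.08 (SE) in erastin-R cells (edgeR adjusted p = 0.0208) left erastin-R replicate 1 within the vehicle range. The call was lost without vehicle replicate 2 or 3 or erastin-R replicate 2 or 3, with adjusted p of 0.0703, 0.0878, 0.0876 and 0.0826.

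**Figure D3:**
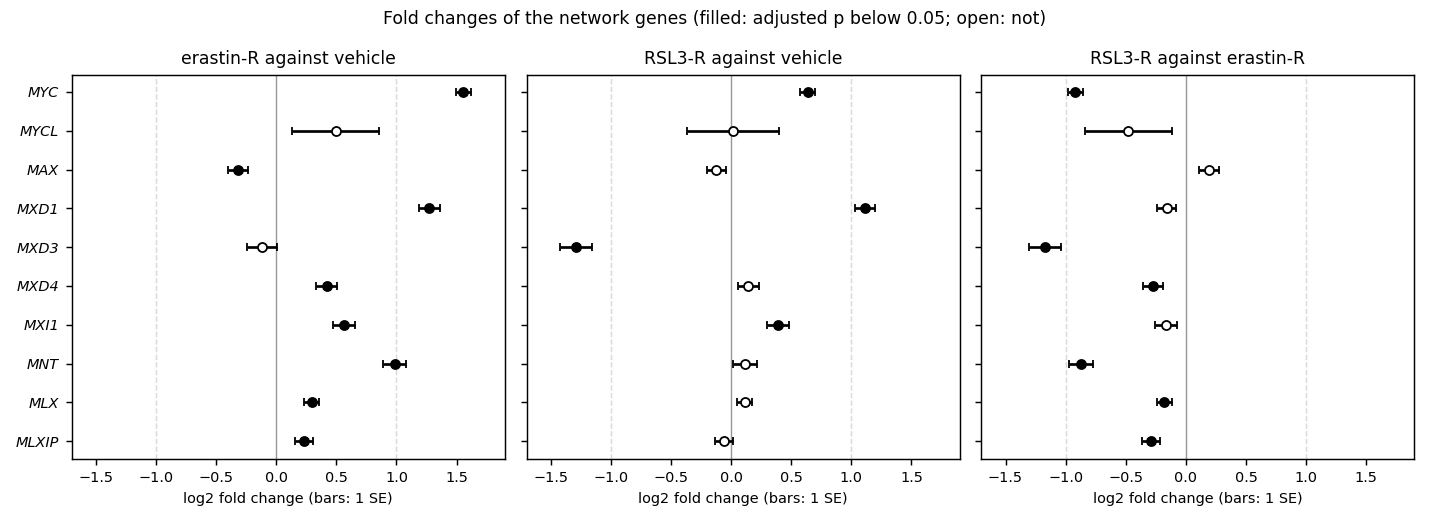
Log2 fold changes of the 10 network genes in the 3 comparisons, with bars of 1 SE from the edgeR fit of 9 libraries and dashed lines at 2-fold. Filled points passed an adjusted p of 0.05, and in RSL3-R against erastin-R all filled points lie below 0, from -1.17 for MXD3 to -0.18 for MLX.

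The 6 genes that were lower in RSL3-R than in erastin-R cells were not equally firm. MYC, MXD3 and MNT passed with every library left out in turn. MXD4, MLX and MLXIP lost the call without RSL3-R replicate 1 (edgeR adjusted p = 0.111, 0.147 and 0.0528) and without RSL3-R replicate 3 (edgeR adjusted p = 0.0959, 0.152 and 0.0544), so that 3 of the 10 genes passed in either case. MXD4 also lost it without erastin-R replicate 2 or 3 (0.0668 and 0.0608), and MLX without erastin-R replicate 2 or RSL3-R replicate 2 (0.0671 and 0.0623), by the same test and adjustment. Without erastin-R replicate 1, 6 passed as lower and 1, MAX, as higher. MXD4, MNT and MLX, whose promoter stretches hold the box, all rose in erastin-R cells, did not pass in RSL3-R against vehicle and were lower in RSL3-R than in erastin-R cells. MXD4 did pass in RSL3-R against vehicle when only those groups were fitted (edgeR adjusted p = 0.0157). MLXIP, whose window does not hold the box, had the same pattern. The 3 genes were picked by the box after the values were known, so this is a description and nothing particular to genes with the box.

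Of the other genes of the network, MLXIPL, the glucose-responsive relative of MLXIP also called ChREBP, had 35.7, 37.6 and 33.4 CPM in vehicle, 19.0, 24.6 and 25.0 in erastin-R and 57.9, 64.0 and 61.0 in RSL3-R libraries. It fell in erastin-R cells (log2 fold change -0.64 ± 0.10 SE, edgeR adjusted p = 0.00012), rose in RSL3-R cells (log2 fold change 0.78 ± 0.10 SE, edgeR adjusted p = 1.58e-05) and was 1.42 higher on the log2 scale in RSL3-R than in erastin-R cells (edgeR adjusted p = 1.21e-07). MGA, a large MAX partner with a T-box, rose in RSL3-R cells by 0.47 ± 0.09 (SE, edgeR adjusted p = 0.0007), and its 0.21 in erastin-R cells did not pass (edgeR adjusted p = 0.0626), and passed without vehicle replicate 3 or erastin-R replicate 3 (edgeR adjusted p = 0.0182 and 0.0296).

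Among genes that MYC is known to activate, more fell than rose in either resistant group. MYC transcript was higher in both groups, and whether it acted on these genes was not tested. The list of 47 held 25 nucleolar and ribosome production genes and 22 genes of metabolism and growth, and it was written by hand. In erastin-R cells 6 rose, 22 fell and 19 did not pass, with a median log2 fold change of -0.22. Without erastin-R replicate 1, 10 rose and 26 fell. For RSL3-R cells the counts were 2 that rose, 29 that fell and 16 that did not pass, with a median of -0.37. Between the resistant groups 6 were higher and 19 lower in RSL3-R, with a median of -0.13. The shares and medians of all genes are those given beside the counts of the 10 network genes. Some list genes share much of their exonic length with other genes. On the same strand this was 54.4% for NOP2, 59.8% for PPAN and 48.6% for EIF4A1, and on the opposite strand 43.2% for CDK4. NOP2 had only 13 to 25 counts per library. The part of shared exons in these counts was not tested. Of the 38 list genes with a RefSeq promoter window, 21 held CACGTG, or 55.3%, against 8.77% of all genes with a window. Of the MLX targets listed below, 3 of the 4 with a window held it too. The list was picked from known MYC targets, so this share is a description and not a test.

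Among the 25 nucleolar genes 4 rose and 11 fell in erastin-R cells, beside 27.1% of all genes higher and 26.8% lower. In RSL3-R cells 0 rose and 14 fell, beside 23.8% of all genes higher and 24.9% lower. NCL, the nucleolar protein nucleolin, fell by 0.68 ± 0.12 (SE) on the log2 scale in erastin-R and by 0.47 ± 0.12 in RSL3-R cells (edgeR adjusted p = 0.000222 and 0.00418). Erastin-R replicate 1 had 518 CPM of NCL, and replicates 2 and 3 had 342 and 355. NOP56, a core protein of C/D box snoRNPs, fell by 0.77 and 0.63, and NOP58, its partner, by 0.71 and 0.42. MRTO4 fell by 0.67 and 0.69. RRS1 fell by 0.95 in erastin-R cells, and its fall of 0.31 in RSL3-R cells had an adjusted p of 0.0449 by edgeR that ended above 0.05 in 11 of 14 other settings, among them the fits without vehicle replicate 1 or 2 or RSL3-R replicate 1 or 3 (0.137, 0.124, 0.198 and 0.194). BOP1 fell by 0.67 in RSL3-R cells, and its value of -0.14 in erastin-R cells did not pass. Erastin-R replicate 1 had 90.3 CPM of BOP1, and replicates 2 and 3 had 118 and 117.

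Among the 22 metabolism and growth genes 2 rose and 11 fell in erastin-R cells, beside 27.1% of all genes higher and 26.8% lower. In RSL3-R cells 2 rose and 15 fell, beside 23.8% of all genes higher and 24.9% lower. LDHA, which makes lactate, fell by 1.02 and 1.29 on the log2 scale, CDC25A, a phosphatase that activates cyclin-dependent kinases, by 0.88 and 1.74, TFRC, the transferrin receptor, by 0.61 and 1.19, and HSPE1, a mitochondrial chaperonin, by 0.60 and 1.22. HSPE1 shares 14.2% of its exonic length with HSPD1 on the opposite strand. HSPD1 had 6600 to 12133 counts per library beside 263 to 693 for HSPE1, and the part of shared exons was not tested. CCND2, cyclin D2, rose by 1.84 and 1.72, from 10.1 to 10.7 CPM in vehicle to 29.8 to 44.0 in the resistant libraries. TERT, the catalytic subunit of telomerase, rose by 1.20 in RSL3-R cells, with -0.07 in erastin-R cells that did not pass, and was 1.26 higher there than in erastin-R cells (edgeR adjusted p = 5.16e-06). ODC1, the ornithine decarboxylase long used as a MYC target, had log2 values of 0.10 and 0.09 and passed in neither group, although without erastin-R replicate 1 it passed in erastin-R cells (log2 fold change 0.16, edgeR adjusted p = 0.00514).

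Of 6 genes that MYC is known to repress, CDKN2B had 0 counts in all libraries, which allows up to 3 counts in each, and 5 were tested. In erastin-R cells 3 rose and 0 fell, beside 27.1% of all genes higher and 26.8% lower. In RSL3-R cells 1 rose and 2 fell, beside 23.8% of all genes higher and 24.9% lower. The balance in RSL3-R cells turned with the setting, to 3 higher and 1 lower by quantile normalization with limma and to 3 higher and 2 lower with only those groups in the edgeR fit. CDKN1C, a cyclin-dependent kinase inhibitor, rose by 1.93 ± 0.20 (SE) on the log2 scale in erastin-R cells (edgeR adjusted p = 3.17e-06), from 5.7 to 7.0 CPM in vehicle to 15.4, 28.2 and 29.5. Its 0.52 in RSL3-R cells did not pass (edgeR adjusted p = 0.0599), but CDKN1C passed there in 4 of 14 other settings. The RSL3-R libraries, at 8.71 to 9.48 CPM, were all above the vehicle libraries. GADD45A, a stress-induced gene, rose by 1.01 and 0.83. CDKN1B, the inhibitor p27, rose by 0.31 in erastin-R cells and fell by 0.21 in RSL3-R cells. That fall lost its call without vehicle replicate 2 or RSL3-R replicate 1 or 3 (edgeR adjusted p = 0.085, 0.204 and 0.0823). NDRG1 fell by 0.30 in RSL3-R cells, and CDKN1A, the inhibitor p21, passed in neither group against vehicle, with values of -0.14 and 0.21. Erastin-R replicate 1 had 59.1 CPM of CDKN1A, and replicates 2 and 3 had 79.3 and 75.5. In RSL3-R cells CDKN1A did pass in 2 of 14 other settings. Its RSL3-R libraries, at 88.0 to 92.8 CPM, were all above its vehicle libraries, at 75.1 to 81.3.

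Of 5 targets of MLX and its partners, TXNIP, which restrains glucose uptake and binds thioredoxin, and ARRDC4, its arrestin relative, rose in both groups. TXNIP had 302 to 306 CPM in vehicle, 856 to 911 in erastin-R and 1151 to 1162 in RSL3-R libraries, with no overlap. It rose by 1.53 ± 0.05 (SE) on the log2 scale in erastin-R and by 1.93 ± 0.05 in RSL3-R cells (edgeR adjusted p = 2.58e-10 and 1.78e-11), and it was 0.40 higher in RSL3-R than in erastin-R cells (edgeR adjusted p = 2.18e-05). ARRDC4 had 39 to 54 counts per library in vehicle, 85 to 102 in erastin-R and 143 to 227 in RSL3-R, and rose by 1.01 ± 0.20 and 1.95 ± 0.19. Both targets were highest in RSL3-R and lowest in vehicle cells. MLX and MLXIP were highest in erastin-R cells, and MLXIPL was highest in RSL3-R and lowest in erastin-R cells. Whether MLX or its partners changed these targets was not tested.

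The other targets did not follow TXNIP. HK2, a hexokinase that MYC can raise as well, rose by 0.67 ± 0.08 (SE) in erastin-R cells and fell by 0.54 ± 0.08 in RSL3-R cells, and the resistant groups differed by -1.21 (edgeR adjusted p = 1.11e-07). KLF10 fell by 0.81 in erastin-R cells, with 0.11 in RSL3-R cells that did not pass. PFKFB3, which drives glycolysis through fructose bisphosphate, fell by 0.47 in RSL3-R cells, with -0.08 in erastin-R cells that did not pass.

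**Figure D4:**
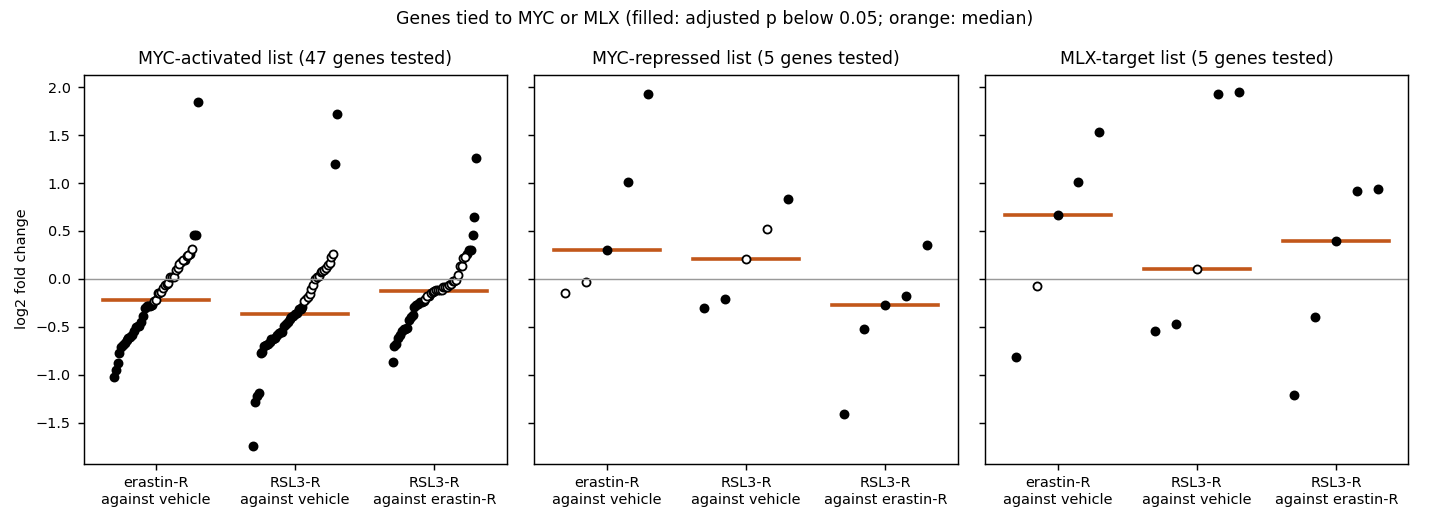
Log2 fold changes of the genes tested in the MYC-activated list, the MYC-repressed list and the MLX-target list in each comparison, with 1 point per gene and the list's median as an orange line. The medians of the 47 MYC-activated genes lie below 0 in all 3 comparisons, at -0.22, -0.37 and -0.13.

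Cofactors of the 2 arms and genes of MYC turnover were 23 in all, of which 8 were higher and 7 lower in erastin-R cells and 6 higher and 12 lower in RSL3-R cells. Over all genes the shares were 27.1% and 26.8% in the first comparison and 23.8% and 24.9% in the second. Without erastin-R replicate 1, 8 of the 23 were higher and 10 lower in erastin-R cells, KAT5 and NCOR1 being among those newly lower (edgeR adjusted p = 0.0187 and 0.000995). Of 9 activating cofactors 4 rose and 0 fell in erastin-R cells, and 2 rose and 5 fell in RSL3-R cells. EP400 rose in both groups, by 0.49 and 0.37 on the log2 scale. RUVBL2, WDR5 and KAT5 fell in RSL3-R cells by 0.66, 0.43 and 0.46, and KAT2A rose by 0.25 in erastin-R cells and fell by 0.34 in RSL3-R cells. KAT2A lost the rise without vehicle replicate 2 or 3 or erastin-R replicate 2 or 3 (edgeR adjusted p from 0.0721 to 0.107), and KAT5 lost its fall without RSL3-R replicate 1 or 3 (edgeR adjusted p = 0.0554 and 0.0633). KAT5 shares 38.6% of its exonic length with RNASEH2C on the opposite strand, which had 394 to 799 counts per library beside 186 to 305 for KAT5, and the part of shared exons was not tested. Of 5 repressing cofactors 1 rose and 2 fell in erastin-R cells, and 2 rose and 2 fell in RSL3-R cells. HDAC1 fell by 0.87 and 0.46 and SIN3A by 0.36 and 0.33, whereas SIN3B rose by 0.38 and 0.62, and NCOR1 rose by 0.36 in RSL3-R cells.

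Of 9 genes that set how long the MYC protein lasts, 3 were higher and 5 lower in erastin-R cells and 2 higher and 5 lower in RSL3-R cells. The shares of all genes were 27.1% higher and 26.8% lower in erastin-R cells and 23.8% and 24.9% in RSL3-R cells. The higher genes were thus near the share of all genes. FBXW7, the F-box protein that sends MYC to the proteasome, rose by 0.83 ± 0.10 (SE) in erastin-R cells and by 0.49 ± 0.10 in RSL3-R cells (edgeR adjusted p = 1.07e-05 and 0.00114). SKP2, another F-box protein, fell by 0.78 and 1.32. CIP2A, which shields MYC from the phosphatase PP2A, fell by 0.95 and 1.14. AURKA, a mitotic kinase that can stabilize MYC proteins, fell by 0.18 and 1.28. In erastin-R cells AURKA lost its call without vehicle replicate 1 (edgeR adjusted p = 0.0586). USP36, a nucleolar deubiquitinase, rose by 0.74 and 0.24. MYC protein was not measured in these libraries.

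PVT1, the long RNA gene beside MYC, rose by 0.37 ± 0.13 (SE) on the log2 scale in RSL3-R cells (edgeR adjusted p = 0.0254), and its 0.25 ± 0.13 in erastin-R cells did not pass (edgeR adjusted p = 0.106). The RSL3-R call was lost without vehicle replicate 2 or 3 or RSL3-R replicate 3, with adjusted p of 0.122, 0.0718 and 0.0972. CASC11, another RNA of the locus, had at most 4 counts in a library, and no gene named CCAT1 was found in the tables.

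Genes whose log2 values followed MYC most closely over the 9 libraries were sought among 2337 protein-coding genes with a span of group means of at least 1 on the log2 scale. The 5 closest by Pearson correlation were TGIF1 (r = 0.9974), EML2, POFUT2, FAM193B and ABCA1 (r = 0.9921), and 172 of the candidates had r above 0.95. TGIF1, a repressor of TGF-beta and retinoid responses, had group means of 68.1, 194 and 105 CPM in vehicle, erastin-R and RSL3-R cells, beside 190.4, 560.0 and 296 for MYC. The closest genes to MXD3 were POLD1 (r = 0.9921), the catalytic subunit of DNA polymerase delta, WDR62, ARHGAP33, SEMA4F and RAD54L (r = 0.9858), and 65 had r above 0.95. POLD1 had group means of 87.9, 84.8 and 41.4 CPM. With 3 groups of 3 libraries such values mostly reflect 3 group means, and they are given with no test.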

How the data were processed

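RNA from 3 vehicle, 3 erastin-R and 3 RSL3-R libraries of MDA-MB-231 cells was analysed, grouped by the treatment in the labels. Per the methods, poly(A) RNA was selected with oligo-dT. Per the submitters' processing notes, HISAT2 2.0.5 and featureCounts 1.5.0-p3 were used, and the paper's methods state that uniquely mapped exonic reads were taken. The authors deposited raw counts per gene and, from the same counts, FPKM, which divides by exonic length. Gene positions and lengths of all 58735 genes equalled GENCODE 29. Counts (15405102 to 17273464 per library) were tested with edgeR 4.0.16 in R 4.3.3, with filterByExpr, TMM factors and the quasi-likelihood test in 1 model of all 9 libraries without covariates. p values were adjusted by Benjamini-Hochberg over 16188 genes, and passing means an adjusted p below 0.05. The SE was derived from the quasi-likelihood test, as the absolute log2 fold change over the square root of its F statistic. The coefficient of variation between libraries of a group, which edgeR calls biological, was 8.56%, and this spread may be technical. FPKM served only for levels between genes. Intervals for counts of 0 (3 counts) cover counting error only. Log2 values for correlations used a prior count of 3.

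Named genes were the 10 network genes, TXNIP, ARRDC4, ODC1, NCL, CDKN1A and PVT1, up to 6 genes per list with the largest absolute log2 fold change among those that passed, and the 5 protein-coding genes most correlated with MYC and with MXD3, the other member with the widest span. Some genes that this rule names are not reported here. Members and lists were chosen with earlier results of these data known. Same-numbered libraries did not deviate together (mean r -0.00495 over 9 pairs, from -0.0904 to 0.0518, against 0.00256 over 18 others). Alternatives were other filters, scalings, DESeq2 1.42.0, limma 3.58.1 on quantile-normalized values, fits of 2 groups, a replicate block and leaving out each library. Scripts were tested on simulated data. Figures were drawn with Python and matplotlib.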

Additional observations from a re-analysis of the deposited data

Results flagged for a closer look

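In 4 of the named genes, none of them among the 10 members, both resistant groups differed from vehicle in opposite directions, and the difference between the resistant groups was itself past the threshold in edgeR's test. MLXIPL was 1.42 ± 0.10 (SE) higher on the log2 scale in RSL3-R than in erastin-R cells (edgeR adjusted p = 1.21e-07). HK2 differed by -1.21 ± 0.08 (edgeR adjusted p = 1.11e-07), CDKN1B by -0.52 ± 0.07 (edgeR adjusted p = 4.16e-05) and KAT2A by -0.59 ± 0.09 (edgeR adjusted p = 7.16e-05). The opposite directions were less firm for CDKN1B, whose fall in RSL3-R cells lost its call in 3 fits that left out 1 library (edgeR adjusted p = 0.085, 0.204 and 0.0823), and for KAT2A, whose rise in erastin-R cells lost it in 4 such fits (edgeR adjusted p from 0.0721 to 0.107). Groups of 3 libraries were too small for a test of single outlying samples.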

How the results depend on the processing

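Each count of passing genes was recomputed under 8 other settings of filter, scaling, tool, samples or block, and 143 of 144 such counts stayed within 1.5 times the reported one. The exception was the MYC-repressed list in RSL3-R against vehicle, where 5 genes passed with only the 2 groups in the fit. Of 16188 genes tested, 2162 passed with a 2-fold change also required in erastin-R against vehicle. In RSL3-R against vehicle 1635 did, and in RSL3-R against erastin-R 1674. In this order 2, 2 and 1 of the 10 network members passed, and 2, 6 and 1 of the 47 MYC-activated genes. Of the 5 MLX targets 2, 2 and 1 did, of the 23 cofactor and turnover genes 0, 3 and 1, and of the 5 MYC-repressed genes tested 2, 0 and 1. With any library left out, 3 to 7 members passed between the resistant groups. The replicate block, for numbers that did not pair the libraries, left the members that passed at 8, 4 and 6.

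Between the resistant groups MXD4 and MLX also lost the call with quantile normalization (limma adjusted p = 0.0948 and 0.304) and with only 2 groups in the fit (edgeR adjusted p = 0.065 and 0.102), MLX also with no filter (0.0941), and MAX gained it with a mean CPM of at least 1, median-ratio factors and quantile normalization (adjusted p = 0.0464, 0.0463 and 0.00792). MYC, MXD1, MXI1 and MNT kept direction and call against vehicle and between the resistant groups under every setting. Values that changed sign lay near 0 or on few counts, and none of them passed under the other sign. By quantile normalization with limma, NDRG1 in erastin-R cells came to 0.010, RUVBL2 there to -0.0033 and MYCL in RSL3-R cells to -0.18. Between the resistant groups ODC1 came to 0.0019 with a mean CPM of at least 1, 0.0039 with median-ratio factors, 0.077 with quantile normalization, 0.0040 with DESeq2 and 0.026 with only 2 groups in the fit, and MRTO4 to 0.071 with quantile normalization and 0.020 with only 2 groups in the fit. Over left-out libraries, MXD3 in erastin-R cells ranged from -0.24 to 0.029, TERT from -0.17 to 0.072 and RUVBL2 from -0.011 to 0.055. MYCL in RSL3-R cells ranged from -0.15 to 0.13. Between the resistant groups ODC1 ranged from -0.080 to 0.039, MRTO4 from -0.081 to 0.076 and CCND2 from -0.21 to 0.018. The cause was not tested. Depth limits MYCL, at 8 to 18 counts per library, and ARRDC4 in vehicle cells.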
